A study of Homo sapiens with 6 samples.

Results

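The genes described here are 10 secreted mediators of inflammation in WI38 cells, a human diploid lung fibroblast line: the cytokines IL1A, IL1B, IL18, IL6 and LIF, the chemokines IL8 (now CXCL8), CXCL1, CXCL2 and CCL2, and the pentraxin PTX3. They were picked by name from the platform's gene symbols, with the directions of CCL2, PTX3, IL8 and IL1 against control already known, so their differences from control are given as descriptions, with no p-value, and counts of limma calls among them stand only beside the share of all genes called. All 10 passed the requirement of at least 3 probesets of their own, and they are 10 of the 15417 genes measured, with 50 of the 232479 probesets. Cells had received the MALAT1 antisense oligonucleotide AS1, a second one, AS2, or a control oligonucleotide (Ctr). Each was given at 100 nM in 2 transfections 24 h apart with a lipid reagent, and Affymetrix exon arrays were run with 2 arrays per group. All 3 groups therefore carry a transfected oligonucleotide, and no array of untransfected cells was analysed here.

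MALAT1 is a long noncoding RNA that is retained in the nucleus. Fibroblasts answer injury and infection by secreting cytokines and chemokines, which act on the cells that release them and draw in leukocytes. IL-1 signals through MYD88 and IRAK kinases to NF-kB and AP-1, transcription factors that switch on IL6, IL8, CXCL1, CXCL2, CCL2 and PTX3, while IL-6 and LIF signal through the shared receptor chain gp130 and STAT3. Several of these secreted proteins belong to the secretory phenotype of senescent fibroblasts.

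The oligonucleotides are shown because each group received only 1 sequence, and because unmethylated CpG is a known ligand feature of the innate receptor TLR9. Capitals mark a CpG.
AS1: gggagttacttgccaacttg
AS2: atggaggtatgacatataat
Ctr: gttagtgataCGatgataaa
All 3 have 20 bases. AS1 and AS2 held 0 CpG and Ctr held 1, with 10 G or C bases in AS1, 6 in AS2 and 6 in Ctr. TLR9 itself read 6.81 and 7.21 with AS1, 7.31 and 7.05 with AS2, and 7.05 and 6.65 on the Ctr arrays (log2), a mean difference of 0.25 ± 0.16 (SE, limma, adjusted p = 0.317). The part of the oligonucleotide sequence in any difference below was not tested, and with 1 sequence per group it cannot be told apart from the group.

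Promoter windows of 300 bases, 250 before and 50 after the annotated start, were found in RefSeq (GRCh38.p14) for 7 of the 10 members in 8 windows. 3 motifs were searched on both strands: a kB motif of NF-kB, GGANTTNCC, the AP-1 motif TGANTCA and the TATA box TATAAA. The kB letters occurred in 4.27% of 35116 promoters of the same length, the AP-1 letters in 7.71% and the TATA letters in 11.5%. The 4 windows below are shown because the same motif letters stand before a gene that was higher with the MALAT1 oligonucleotides (CXCL8), one with little difference (CXCL1), one that was lower (PTX3), and one whose probesets disagreed (IL6). Capitals mark kB matches and, in CXCL8, the upstream AP-1 match TGACTCA.
CXCL8 chr4:73740319-73740618 (plus strand): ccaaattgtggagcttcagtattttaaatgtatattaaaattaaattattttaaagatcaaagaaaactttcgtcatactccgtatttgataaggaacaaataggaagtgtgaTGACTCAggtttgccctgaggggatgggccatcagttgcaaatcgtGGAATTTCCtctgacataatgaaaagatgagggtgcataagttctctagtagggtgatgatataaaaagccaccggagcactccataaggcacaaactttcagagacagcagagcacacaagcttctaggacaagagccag
CXCL1 chr4:73869143-73869442 (plus strand): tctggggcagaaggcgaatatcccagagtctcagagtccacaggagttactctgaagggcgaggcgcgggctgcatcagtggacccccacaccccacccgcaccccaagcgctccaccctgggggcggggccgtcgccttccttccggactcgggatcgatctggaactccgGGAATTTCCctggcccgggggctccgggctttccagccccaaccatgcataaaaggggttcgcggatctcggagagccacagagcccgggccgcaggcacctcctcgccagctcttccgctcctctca
PTX3 chr3:157436600-157436899 (plus strand): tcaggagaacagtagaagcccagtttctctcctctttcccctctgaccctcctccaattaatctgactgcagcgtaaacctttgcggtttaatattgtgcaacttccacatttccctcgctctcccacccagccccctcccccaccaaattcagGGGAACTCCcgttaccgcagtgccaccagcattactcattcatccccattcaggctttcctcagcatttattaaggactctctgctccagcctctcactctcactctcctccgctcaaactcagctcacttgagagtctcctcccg
IL6 chr7:22726950-22727249 (plus strand): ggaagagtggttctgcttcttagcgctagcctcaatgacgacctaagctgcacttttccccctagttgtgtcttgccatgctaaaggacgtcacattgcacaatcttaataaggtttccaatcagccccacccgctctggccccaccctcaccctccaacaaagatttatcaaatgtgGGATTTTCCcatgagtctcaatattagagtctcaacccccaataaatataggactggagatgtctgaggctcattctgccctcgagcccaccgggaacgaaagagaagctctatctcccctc
CXCL8 and CXCL1 carried the same kB letters, GGAATTTCC, at 91 and 78 bases before the start, and CXCL2 carried them at 77 bases. IL6 carried GGATTTTCC at 72 bases, and PTX3 carried GGGAACTCC, read on its minus strand, at 96 bases. IL1A held 2 AP-1 matches and no kB match, and IL1B held no match to any of the 3. The CXCL1 and CXCL2 windows shared a run of 42 identical bases, against 9 for CXCL8 with either of them, and those 9 are the kB letters. No window was found for CCL2, LIF and IL18, which were all lower with the MALAT1 oligonucleotides. The 4 windows shown were picked by how their genes differed, so nothing about motif and direction is read from them. A match is a description of these letters and not of a bound site.

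MALAT1 read 9.23 and 7.82 with AS1, 8.19 and 8.13 with AS2, and 12.00 and 11.97 on the Ctr arrays (log2), a mean difference of -3.64 ± 0.29 (SE, limma, adjusted p = 1.85e-05). AS1 array 1 had the highest MALAT1 value of the 4 MALAT1 oligonucleotide arrays. Array medians lay between 7.34 and 7.36, replicate arrays correlated at 0.984 to 0.987 across probesets and MALAT1 oligonucleotide arrays with Ctr arrays at 0.959 to 0.968. Of 15 fibroblast markers, 1 rose and 5 fell (COL3A1, THY1, PDGFRA, PDGFRB and FAP), and the list mean was 10.24 and 10.23 with AS1, 9.89 and 10.19 with AS2, and 10.35 and 10.57 on the Ctr arrays. Leukocytes also make these mediators. Of 17 leukocyte markers 15 were among the dimmest 33.3% of genes on the Ctr arrays and only the B cell gene CD79A was called (1.64 ± 0.11), and the list mean was 4.72 and 5.03 with AS1, 5.06 and 4.86 with AS2, and 5.03 and 4.82 on the Ctr arrays. In RNA from whole cultures of this line, fewer cells that express a gene and less of its RNA per cell cannot be told apart.

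Among the 10 members, 7 were called in the mean of both MALAT1 oligonucleotides against Ctr, 3 higher (IL8, IL1B and IL1A) and 4 lower (PTX3, CCL2, LIF and IL18). The same limma fit called 24.8% of all genes in that contrast. With AS1 alone against Ctr 8 were called, 4 higher and 4 lower, beside 20.0% of all genes, and with AS2 alone 7 were called, 3 higher and 4 lower, beside 20.9%. Both comparisons use the same 2 Ctr arrays. In 9 of the 10 the 4 MALAT1 oligonucleotide arrays did not overlap the 2 Ctr arrays, 4 above and 5 below, and 41.5% of all genes showed no overlap in one direction or the other. Since the members were picked with these differences known, nothing is read from their counts. The plot of values by array shows the split in direction.

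**Figure D1:**
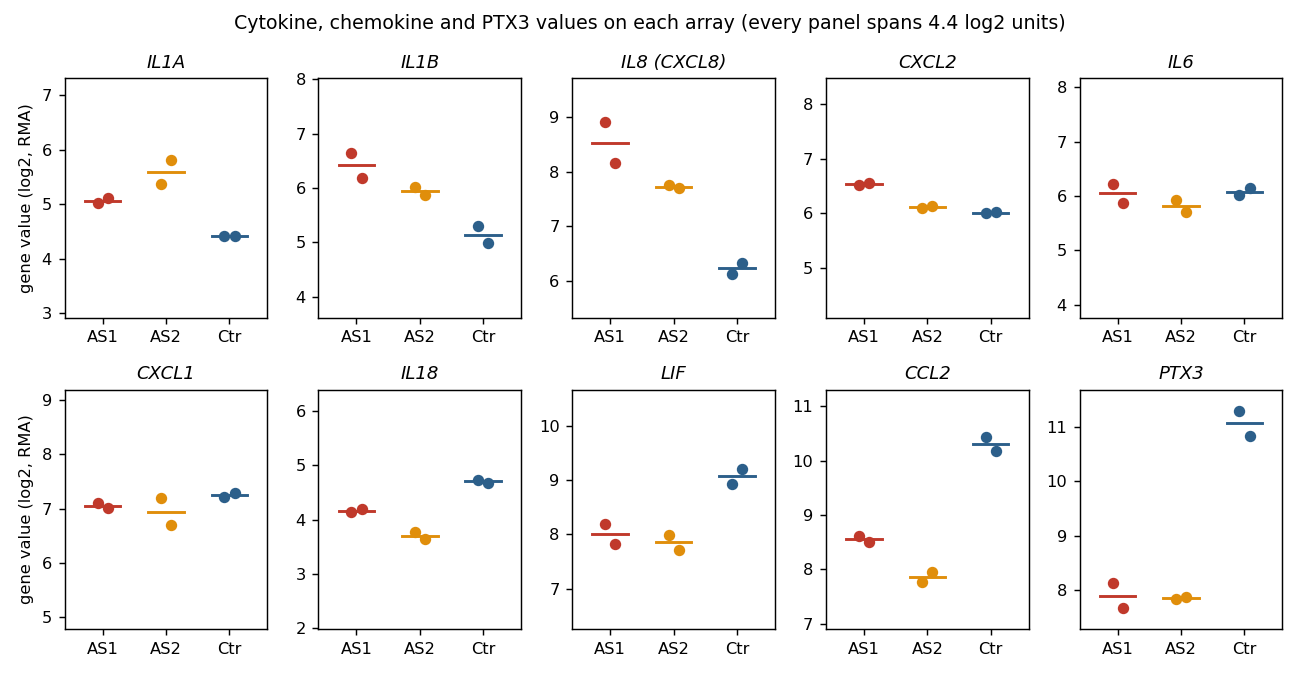
Gene value on each array (log2, RMA; y axis) with AS1, AS2 and Ctr (x axis), 2 arrays per group; points are arrays and lines are group means. PTX3 and CCL2 sat far below the Ctr arrays with both oligonucleotides, IL8, IL1A and IL1B sat above them, and the IL6 values overlapped.

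PTX3, a soluble pattern recognition protein that binds microbes and complement C1q and helps build hyaluronan-rich matrix, showed the largest difference of the 10. It read 8.13 and 7.66 with AS1, 7.84 and 7.87 with AS2, and 11.30 and 10.83 on the Ctr arrays (log2). All 4 MALAT1 oligonucleotide arrays lay below both Ctr arrays and the AS1 and AS2 arrays overlapped. The difference was -3.17 with AS1, -3.21 with AS2 and -3.19 ± 0.16 in the mean (SE), 9.13-fold lower. On the Ctr arrays PTX3 stood at percentile 98.4 of the tested genes.

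All 5 PTX3 probesets were below the Ctr arrays on every MALAT1 oligonucleotide array, with mean differences of -2.78 to -3.84. The one that differed most, probeset 2649379, read 7.08 and 6.39 with AS1, 6.41 and 6.96 with AS2, and 10.77 and 10.33 on the Ctr arrays. The 2 genes with the profile nearest to PTX3, by Euclidean distance over 6 arrays after subtracting the Ctr mean, were DLGAP5 (distance 0.858; -2.89 with AS1 and -2.88 with AS2), a mitotic spindle protein, and GPR155 (distance 1.11).

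CCL2, the monocyte chemoattractant MCP-1, read 8.61 and 8.50 with AS1, 7.77 and 7.95 with AS2, and 10.44 and 10.18 on the Ctr arrays. Its 3 groups did not overlap, with AS2 lowest and Ctr highest. The difference from Ctr was -1.76 with AS1, -2.45 with AS2 and -2.10 ± 0.12 in the mean, 4.30-fold lower. All 5 CCL2 probesets were below the Ctr arrays, with mean differences of -1.32 to -2.92, and each was lower with AS2 than with AS1. Probeset 3718176 read 6.61 and 6.58 with AS1, 5.89 and 6.17 with AS2, and 9.34 and 9.12 on the Ctr arrays. The nearest profiles were those of RFTN2 (distance 0.372) and SLC38A4 (distance 0.545).

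IL8, the neutrophil chemoattractant CXCL8, differed most in the other direction. It read 8.91 and 8.17 with AS1, 7.76 and 7.70 with AS2, and 6.13 and 6.32 on the Ctr arrays. The groups did not overlap, with AS1 highest and Ctr lowest, and AS1 array 1 had the highest IL8 value. The difference was 2.31 with AS1, 1.50 with AS2 and 1.91 ± 0.18 in the mean, 3.75-fold higher.

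Of the 3 IL8 probesets, 2 were above the Ctr arrays on every MALAT1 oligonucleotide array, 2731338 by 2.56 and 2731341 by 2.70 in the mean. The remaining probeset, 2731339, read 7.34 and 6.98 with AS1, 6.71 and 6.41 with AS2, and 6.20 and 6.59 on the Ctr arrays, so that one AS2 array overlapped Ctr. Its mean difference was 0.46. The profiles nearest to IL8 were those of ZNF560 (distance 0.557) and FBXO32 (distance 0.593), a muscle atrophy ubiquitin ligase.

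CXCL1 and CXCL2 signal through the same neutrophil receptor as IL8 and differed far less. CXCL1 read 7.11 and 7.0 with AS1, 7.19 and 6.69 with AS2, and 7.21 and 7.28 on the Ctr arrays, a difference of -0.25 ± 0.14 in the mean, or -0.54 with the median of the probesets. Its values lay just below the Ctr arrays, with one AS2 array only just beneath the nearer of them. Only 1 of its 3 probesets was below Ctr throughout, while probeset 2731382 read 10.46 and 10.97 with AS1, 10.76 and 10.69 with AS2, and 10.73 and 10.35 on the Ctr arrays, with the groups overlapping.

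CXCL2 read 6.52 and 6.56 with AS1, 6.09 and 6.13 with AS2, and 6.0 and 6.03 on the Ctr arrays. The AS1 arrays were clearly highest and the AS2 arrays only just above Ctr, with differences of 0.53 with AS1, 0.10 with AS2 and 0.31 ± 0.11 in the mean, or 0.85 in the mean with the median of the probesets. Most of this came from 1 probeset, 2773438, at 5.65 and 5.17 with AS1, 3.70 and 4.08 with AS2, and 3.71 and 3.90 on the Ctr arrays. Probeset 2773447, at percentile 98.1 of all probesets on the Ctr arrays, read 11.65 and 12.02 with AS1, 11.77 and 11.70 with AS2, and 11.77 and 11.61 on the Ctr arrays. None of the 3 CXCL2 probesets separated all 4 MALAT1 oligonucleotide arrays from Ctr.

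IL1B, the secreted form of IL-1 that caspase-1 cleaves, read 6.65 and 6.19 with AS1, 6.02 and 5.86 with AS2, and 5.30 and 4.99 on the Ctr arrays. The groups did not overlap, with AS1 highest. The difference was 1.28 with AS1, 0.80 with AS2 and 1.04 ± 0.15 in the mean, 2.05-fold higher, and 1.57 in the mean with the median of the probesets. On the Ctr arrays IL1B stood at a dim level, percentile 18.1 of the tested genes. Of its 7 probesets 4 were above Ctr throughout. Probeset 2571517 differed most, by 2.52 in the mean, and read 8.13 and 7.32 with AS1, 6.80 and 6.89 with AS2, and 4.91 and 4.62 on the Ctr arrays. The profiles nearest to IL1B were those of RCL1 (distance 0.353) and SULT1C2 (distance 0.366).

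IL1A, which stays largely in the cell or on its surface and acts on the same receptor, read 5.02 and 5.11 with AS1, 5.37 and 5.82 with AS2, and 4.42 and 4.41 on the Ctr arrays. Again the groups did not overlap, but here the AS2 arrays were highest. The difference was 0.65 with AS1, 1.18 with AS2 and 0.91 ± 0.14 in the mean, 1.88-fold higher, from a dim level (percentile 9.56 on the Ctr arrays). With the median of the probesets in place of their mean it was 1.66 with AS1, 2.32 with AS2 and 1.99 in the mean. Of its 5 probesets 3 were above Ctr throughout, and probeset 2571487 differed most, by 1.99. The nearest profiles were those of TMEM81 (distance 0.182) and XG (distance 0.242).

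IL18, an IL-1 family cytokine that induces interferon gamma in lymphocytes, went the other way. It read 4.13 and 4.20 with AS1, 3.76 and 3.64 with AS2, and 4.73 and 4.67 on the Ctr arrays. No groups overlapped and AS2 was lowest, with differences of -0.54 with AS1, -1.0 with AS2 and -0.77 ± 0.11 in the mean, also from a dim level (percentile 12.8). With the median of the probesets the mean difference of IL18 was -1.39. Of its 7 probesets 4 were below Ctr throughout, and the others included 3391258, at 2.10 and 2.21 with AS1, 2.04 and 2.16 with AS2, and 2.30 and 1.95 on the Ctr arrays.

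LIF, an IL-6 family cytokine known for holding mouse embryonic stem cells undifferentiated, read 8.19 and 7.82 with AS1, 8.0 and 7.72 with AS2, and 8.93 and 9.20 on the Ctr arrays. Every MALAT1 oligonucleotide array lay below both Ctr arrays, and AS1 and AS2 overlapped. The difference was -1.06 with AS1, -1.21 with AS2 and -1.14 ± 0.15 in the mean, 2.20-fold lower, and all 3 LIF probesets were below Ctr throughout.

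**Figure D2:**
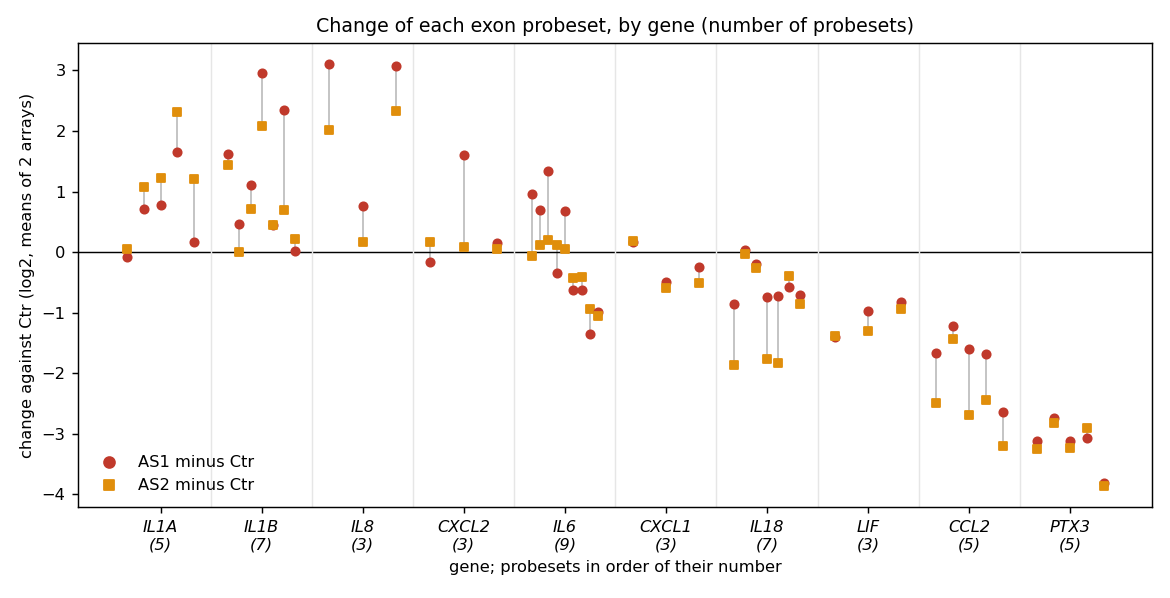
Difference of each probeset from Ctr (log2, means of 2 arrays; y axis) with AS1 (circles) and AS2 (squares), joined by a line, grouped by gene (x axis). All probesets of PTX3, CCL2 and LIF lay below 0, those of IL8, IL1A and IL1B mostly above it, and IL6 showed both.

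IL6, the best known inflammatory cytokine of fibroblasts, differed little in the mean over all of its probesets. It read 6.22 and 5.87 with AS1, 5.93 and 5.70 with AS2, and 6.02 and 6.14 on the Ctr arrays, with the groups overlapping and a mean difference of -0.15 ± 0.13. Its 9 probesets did not move together. They fall in 2 runs of numbers, and beside each run of member probesets the neighbouring genes with a known strand all lay on one strand. The 5 probesets of the first run stand among genes that RefSeq places on the plus strand, which is the strand of IL6 (5 of 6 neighbouring genes, 1 not known), and the 4 of the second run among genes of the minus strand (6 of 6). Every other member had 1 run.

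The first IL6 run averaged 6.94 and 6.45 with AS1, 6.20 and 6.03 with AS2, and 5.87 and 6.19 on the Ctr arrays. The AS1 arrays were highest and the AS2 arrays overlapped Ctr, with differences of 0.67 with AS1 and 0.08 with AS2. Probeset 2992597 differed most of this run with AS1 and read 8.53 and 7.81 with AS1, 7.11 and 6.93 with AS2, and 6.55 and 7.11 on the Ctr arrays. The second run averaged 5.33 and 5.15 with AS1, 5.59 and 5.28 with AS2, and 6.22 and 6.07 on the Ctr arrays. Here both oligonucleotides lay below Ctr without overlap with differences of -0.90 with AS1 and -0.71 with AS2. The mean over all 9 therefore joins a higher and a lower run. RefSeq also places an antisense gene, IL6-AS1, over the IL6 start on the minus strand. No probeset was matched to it and it is given no value, and whether the second run reads IL6 or another RNA was not tested. The split was seen in these values and carries no test.

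**Figure D3:**
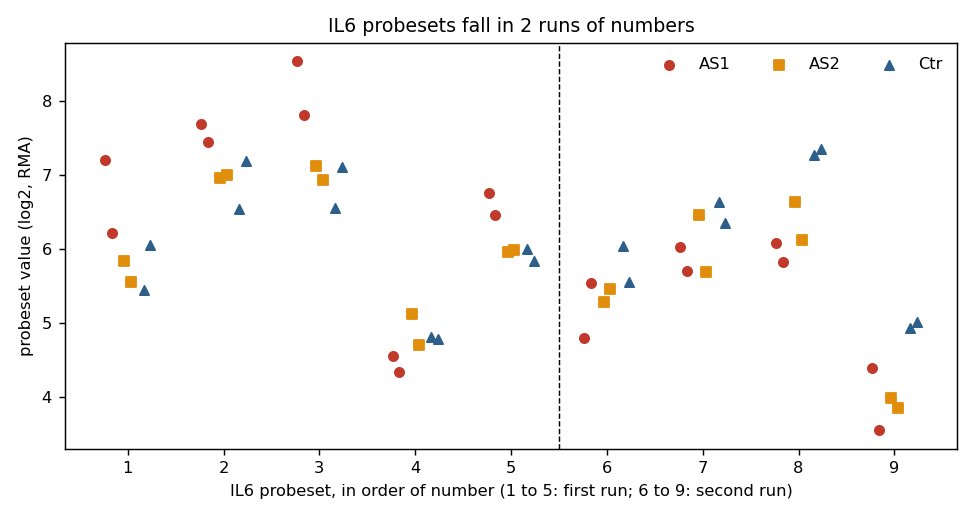
Value of each of the 9 IL6 probesets (log2, RMA; y axis) on each array, in order of probeset number (x axis), with AS1 (circles), AS2 (squares) and Ctr (triangles). In the first run the AS1 arrays were highest for 4 of the 5 probesets in the mean, and in the second run 3 of the 4 lay below both Ctr arrays on every MALAT1 oligonucleotide array.

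Over all members, 9 of the 50 probesets were above both Ctr arrays on all 4 MALAT1 oligonucleotide arrays, 21 below and 20 overlapped. Across all probesets with 1 symbol the shares were 17.4% above and 19.0% below.

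The difference between AS2 and AS1 was not used to pick the members and was tested. At an adjusted p under 0.05, limma called 0 of the 10, and 166 of all genes, or 1.08%. CCL2 came nearest to the threshold, lower with AS2 by a log2 difference of -0.69 ± 0.14 (SE, 95% interval -1.01 to -0.38, adjusted p = 0.0540). IL8 had the largest difference of the 10 and the next lowest adjusted p, at -0.81 ± 0.21 (interval -1.27 to -0.35, adjusted p = 0.126). Fitting only the AS1 and AS2 arrays called both, with an adjusted p of 0.0193 for CCL2 and 0.0370 for IL8, and leaving out AS1 array 1 brought IL8 to -0.44 (adjusted p = 0.479).

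IL18 at -0.46 (adjusted p = 0.159), CXCL2 at -0.43 (adjusted p = 0.186), IL1A at 0.53 (adjusted p = 0.205) and IL1B at -0.48 (adjusted p = 0.362) had 95% intervals that leave out 0 before adjustment. Without AS2 array 2 the IL1A difference was 0.31 (adjusted p = 0.680), and without AS1 array 1 that of IL1B was -0.25 (adjusted p = 0.999). In 6 members the AS1 and AS2 arrays did not overlap. IL1A was the only one of the 6 that was higher with AS2. PTX3 differed by -0.04 (interval -0.46 to 0.38), LIF by -0.14 (-0.52 to 0.23), CXCL1 by -0.12 (-0.48 to 0.25) and IL6 by -0.24 (-0.58 to 0.11). These intervals do not show that the oligonucleotides act alike on the 4 genes.

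**Figure D4:**
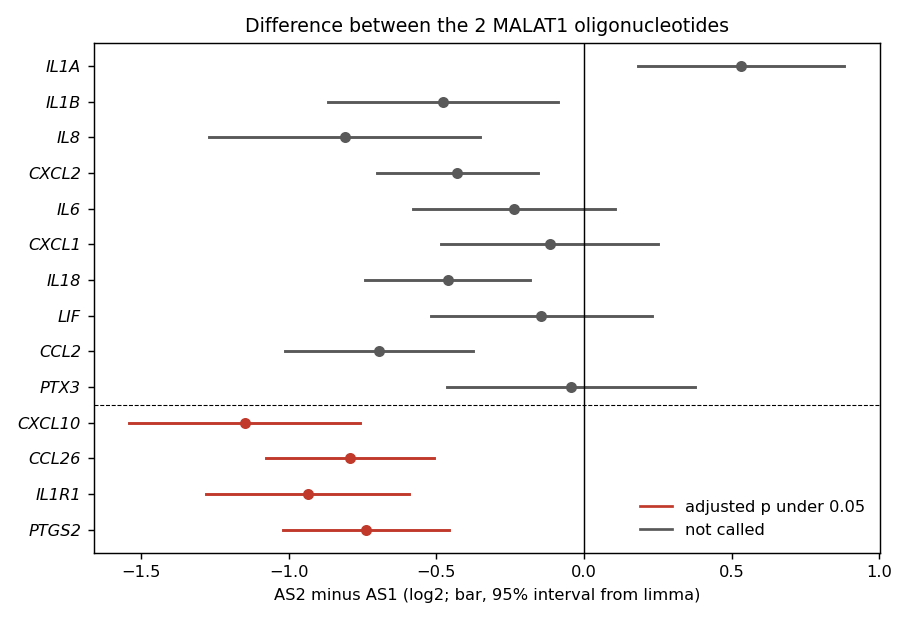
AS2 minus AS1 (log2; x axis) for the 10 members, above the dashed line, and for the 4 genes of inflammatory signalling that limma called, below it; points are the fitted differences and bars their 95% intervals. No member passed the adjusted threshold, and CCL2 and IL8 lay farthest from 0 among them.

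The pathway around the members was followed in 12 lists with 185 measured genes that are not members. In the mean of both oligonucleotides 32 of the 185 rose and 12 fell, or 23.8%, beside 24.8% of all genes. The median difference was -0.02, beside -0.04 over all genes. With AS1 30 rose and 8 fell, or 20.5%, beside 20.0% of all genes. With AS2 24 rose and 13 fell, or 20.0%, beside 20.9%. The list counts that follow are for the mean of both oligonucleotides against Ctr unless a single oligonucleotide is named. They stand beside the same 24.8% of all genes. The plot of the lists shows most genes near 0 with a few far out.

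**Figure D5:**
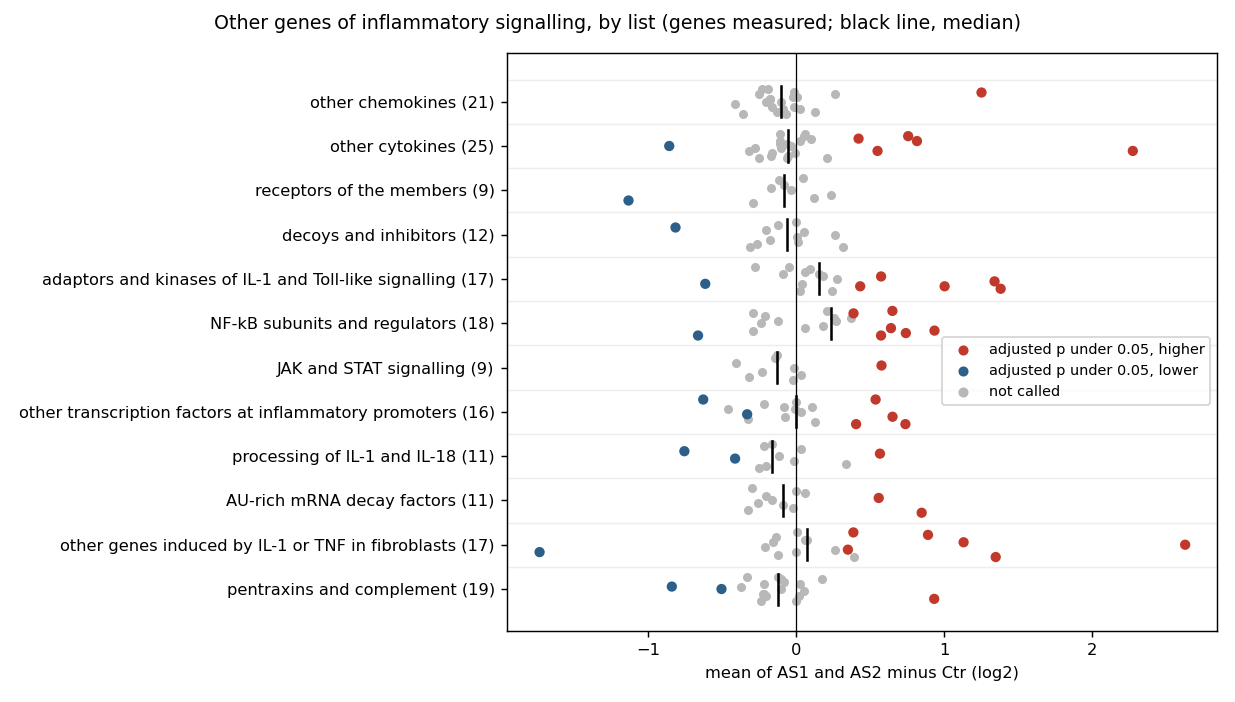
Mean difference of AS1 and AS2 from Ctr (log2; x axis) for each gene of 12 lists (y axis, genes measured in parentheses); coloured points passed the limma test at an adjusted p of 0.05, red higher and blue lower, grey points did not, and black lines are medians. IL24 and MMP3 stood farthest above 0 and VCAM1 farthest below.

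Of 9 measured receptors of the members, only LIFR passed the test in the mean of both oligonucleotides. LIFR, the ligand-binding chain for LIF, read 7.46 and 7.16 with AS1, 6.88 and 7.40 with AS2, and 8.41 and 8.31 on the Ctr arrays. All 4 MALAT1 oligonucleotide arrays were lower, by -1.13 ± 0.16 (adjusted p = 0.00051), so that LIF and its receptor chain were both lower. IL6ST, the shared gp130 chain, differed by 0.12 and IL6R by -0.17, neither called. For the IL-18 receptor chains IL18R1 differed by -0.29 and IL18RAP by -0.08, and for the chemokine receptors IL8RA (CXCR1) by -0.12 and IL8RB (CXCR2) by -0.03, none called. On the Ctr arrays IL18R1 stood at percentile 2.91, IL18RAP at 5.69, IL8RA at 14.3 and IL8RB at 8.36. At these dim levels a missing call does not show that they were unchanged. CCR2, the receptor of CCL2, was not analysed here.

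IL1R1, the signalling receptor of IL-1, separated the oligonucleotides. It read 9.19 and 9.23 with AS1, 8.06 and 8.49 with AS2, and 8.47 and 8.55 on the Ctr arrays. It rose with AS1 (0.70, adjusted p = 0.0101) and not with AS2 (-0.24, adjusted p = 0.357), and AS2 minus AS1 was -0.94 (adjusted p = 0.0199). The co-receptor IL1RAP differed by 0.04 and was not called. Of 12 decoys and inhibitors only SOCS1, which blocks JAK kinases, changed in the mean, at -0.82 ± 0.18 (adjusted p = 0.00732). SOCS1 read 6.88 and 7.02 with AS1, 7.02 and 6.85 with AS2, and 7.39 and 8.13 on the Ctr arrays, which lay far apart. With AS1 alone the IL-1 signalling inhibitor TOLLIP was also called, at 0.40 (adjusted p = 0.0477), and it is named after its value was seen.

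Among 17 adaptors and kinases of IL-1 and Toll-like signalling, 5 rose and 1 fell. The stress kinase MAPK8 (JNK1) rose by 1.38 ± 0.13, the IRAK-binding ubiquitin ligase PELI1 by 1.34 ± 0.14 and MAP3K7IP3 (TAB3), a partner of the TAK1 kinase, by 1.00 ± 0.12. TLR3, the receptor of double-stranded RNA, was lower at -0.62 ± 0.14. It was called with AS2 (-0.95, adjusted p = 0.00193) and not with AS1 (-0.28, adjusted p = 0.261), from a dim level (percentile 18.6 on the Ctr arrays). Among 18 NF-kB subunits and regulators 6 rose and 1 fell. The risers were led by the inhibitors TNFAIP3 (A20) at 0.93 ± 0.16 and NFKBIB at 0.74 ± 0.11 and by the kinase IKBKB at 0.65, and BCL3 was lower at -0.66. The NF-kB subunits did not pass in the mean, with NFKB1 at -0.29 (adjusted p = 0.153) and RELA at 0.06 (adjusted p = 0.769), and nor did the inhibitor NFKBIA at -0.24 (adjusted p = 0.262). NFKBIA differed by 0.06 with AS1 (adjusted p = 0.847) and was called lower with AS2, at -0.54 (adjusted p = 0.0370).

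Of 9 JAK and STAT genes only the phosphatase PTPN6 changed in the mean, at 0.57. PTPN6 was called with AS2 (0.80, adjusted p = 0.00315) and not with AS1 (0.35, adjusted p = 0.120). With AS2 alone the kinase JAK2 was called lower, at -0.61 (adjusted p = 0.0209). Of 16 other transcription factors at inflammatory promoters 4 rose and 2 fell. ATF3 at 0.74, CEBPB at 0.65 and the glucocorticoid receptor NR3C1 at 0.54 were higher, and CEBPD at -0.63 and IRF3 at -0.33 lower. CEBPD was called with AS2 (-0.88, adjusted p = 0.00271) and not with AS1 (-0.38, adjusted p = 0.121). IRF3 was called with neither oligonucleotide alone. Among 11 genes that process IL-1 and IL-18, CASP4 rose by 0.56, while CAPN1, a calpain of the family that cleaves IL-1 alpha, at -0.76 and the inflammasome adaptor PYCARD at -0.41 were lower. PYCARD was called with neither oligonucleotide alone. CASP1, which cleaves IL-1 beta and IL-18, was not called at -0.17. Of 11 factors of AU-rich mRNA decay, AUH at 0.85 and the deadenylase PARN at 0.56 rose in the mean and none fell, and with AS2 alone ZFP36 (tristetraprolin) was called lower, at -0.45 (adjusted p = 0.0303). JAK2 and ZFP36 are named after their values were seen.

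Most other secreted mediators were not called. On the Ctr arrays 16 of the 21 other chemokines and 17 of the 25 other cytokines were among the dimmest 33.3% of genes. At that level a missing call does not show that a gene was unchanged. Of the 21 chemokines only CCL26 (eotaxin-3) was called in the mean, at 1.25 ± 0.11. Of 25 other cytokines 5 rose and 1 fell. IL24, an IL-10 family cytokine, read 7.70 and 7.61 with AS1, 7.61 and 7.28 with AS2, and 5.27 and 5.28 on the Ctr arrays, a rise of 2.27 ± 0.12 (adjusted p = 1.89e-06). TNFSF13B (BAFF) rose by 0.81 and IL11, of the same family as IL6 and LIF, by 0.76, and IL12A was lower at -0.86. IL12A read 6.49 and 6.22 with AS1, 6.12 and 6.17 with AS2, and 7.60 and 6.63 on the Ctr arrays, which lay far apart. IL12A was called with AS2 (adjusted p = 0.0206) and not with AS1 (adjusted p = 0.0598).

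Among genes that IL-1 or TNF induces in fibroblasts, most of those called were higher. Of 17 measured, 6 rose and 1 fell. MMP3, the matrix protease stromelysin-1, read 10.77 and 10.65 with AS1, 10.63 and 10.62 with AS2, and 8.50 and 7.59 on the Ctr arrays, a rise of 2.63 ± 0.20 (adjusted p = 1.72e-05). PTGS2 (COX-2) rose by 1.35 and IER3 by 1.13. VCAM1, the leukocyte adhesion molecule, read 4.40 and 4.25 with AS1, 4.20 and 4.22 with AS2, and 5.82 and 6.18 on the Ctr arrays, lower by a difference of -1.74 ± 0.13 (adjusted p = 1.36e-05). Among 19 other pentraxins and complement genes, where PTX3 has its relatives and partners, the complement inhibitor CD55 rose by 0.93. The neuronal pentraxin NPTX1 at -0.84 and C5 at -0.51 were lower. C5 was called with AS1 (adjusted p = 0.0268) and not with AS2 (adjusted p = 0.0855).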

How the data were processed

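WI38 cells had been treated with phosphorothioate DNA oligonucleotides, and amplified sense-strand cDNA had been hybridised to Affymetrix Human Exon 1.0 ST arrays, 2 per group. The deposited values are log2 signals per exon probeset, which the authors normalised by RMA in Partek (neither version is given in the sources used here). They were used as deposited. Probesets were tied to genes by the GEO platform's symbols, of unknown age, with probesets of several symbols left out. Per array, a gene was summarised as the mean over its probesets. At least 3 probesets were required for testing, which 15417 genes had.

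One limma fit (limma 3.58.1, R 4.3.3) covered all 6 arrays in 3 groups, with Benjamini-Hochberg adjustment over all genes tested and a gene called at an adjusted p under 0.05. The fit was tested on simulated data with known changes. Members and lists were chosen with earlier results of these data known. Named beside the members are MALAT1, every receptor, NFKB1, RELA and NFKBIA, up to 3 largest rises and falls among the called genes of each other list, and the 2 genes whose profile lies nearest to that of CCL2, PTX3, IL8, IL1A and IL1B. Promoters and current names are RefSeq's (GRCh38.p14). No source used here gives the platform's genome build, so no array coordinates are printed. Alternatives changed the probeset summary, normalisation, brightness filter, variance model, replicate block, call threshold and arrays included. No source says that the 2 arrays of a group come from separate cultures, so the p-values cover only array-to-array spread, which may be technical, and array number limits the precision.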

Additional observations from a re-analysis of the deposited data

Results flagged for a closer look

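Among the 195 member and list genes, 4 differed between the 2 MALAT1 oligonucleotides by limma's test of AS2 minus AS1. All 4 were list genes, or 2.16% of the 185, beside 1.08% of all genes. The largest was the interferon-induced chemokine CXCL10, at -1.15 (adjusted p = 0.0141), with 0.55 for AS1 and -0.60 for AS2 against Ctr. CCL26 differed by -0.79 (adjusted p = 0.0180), IL1R1 by -0.94 (adjusted p = 0.0199) and PTGS2 by -0.74 (adjusted p = 0.0225), and all 4 were lower with AS2. On the Ctr arrays CXCL10 stood at percentile 10.2, CCL26 at 18.4 and PTGS2 at 23.2, all dim, and IL1R1 at 74.5. CXCL16 and SOCS3 were on opposite sides of both Ctr arrays with AS1 and with AS2, but AS2 minus AS1 did not pass the test, at 0.46 for CXCL16 (adjusted p = 0.155) and -0.21 for SOCS3 (adjusted p = 0.706). CXCL10, CXCL16 and SOCS3 are named here after their values were seen. With 2 arrays per group no array could be tested as an outlier.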

How the results depend on the processing

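Of the 10 members, 7 were called against Ctr in every run that left out an array, and 4 without variance moderation (ANOVA). For AS2 against AS1 the count of members was 1 with the median of probesets (CXCL2, -1.52, adjusted p = 0.0482), and 2 (CCL2 and IL8) with limma's trend and robust options or with only the groups compared, and 0 to 2 when an array was left out. Leaving out either Ctr array leaves the spread for AS2 against AS1 to the AS1 and AS2 arrays, so it repeats the fit of only the groups compared. Without AS1 array 2 the difference was -0.75 for CCL2 and -1.18 for IL8. Against Ctr, 5 members were called with the dimmest 25% of probesets left out. IL1A, IL18, CXCL1 and CXCL2 then kept too few probesets to be tested. The methods' threshold (over 2-fold and an unadjusted p under 0.001) also called 5 members. The pathway lists had 44 calls, 20 by ANOVA and 10 at the methods' threshold. Over all genes, ANOVA called 142 for AS1, 436 for AS2, 1032 for the mean and 0 for AS2 against AS1, and the methods' threshold 525, 637, 555 and 57 in the same order. With an array left out, calls ranged over 1259 to 3581 for AS2 (1774 without AS2 array 1, 1259 without AS2 array 2), 2551 to 3979 for the mean (2551 without AS2 array 2) and 13 to 274 for AS2 against AS1 (13 without AS2 array 1, 20 without AS2 array 2, 274 without either Ctr array). AS2 against AS1 also gave 31 genes with the median of probesets, 110 with at least 1 probeset, 398 with trend and robust options and 274 with only the groups compared. A run that leaves out an array of the group outside a contrast repeats the fit of only the groups compared, and is no separate check. The cause of the other moves was not tested.

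Replicate numbers gave no consistent pairing: deviations of arrays with the same number correlated at -0.509 (AS1 and Ctr), 0.392 (AS2 and Ctr) and -0.343 (AS1 and AS2). By these signs AS1 array 2 deviated together with array 1 of AS2 and array 1 of Ctr. Whether arrays of different groups share an effect was not tested. The replicate block used the numbers as given, so it does not follow that alignment. It called 84 genes for AS2 against AS1 and changed no count of members called. Splitting IL6 by run, chosen after seeing the data, moved its mean difference to 0.38 for the first run and -0.80 for the second. Few arrays and dim levels limit the precision. IL1A, IL18, IL1B, CXCL2 and IL6 were among the dimmest 33.3% of genes on the Ctr arrays.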
